A study of Mus musculus with 20 samples.

Results

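The variable (V) segments of the immunoglobulin loci were followed in bulk RNA of mouse cDC1s, a subset of conventional dendritic cells that was sorted by its XCR1 and presents captured antigen to CD8 T cells. Every gene row whose symbol begins with Ighv (heavy chain), Igkv (kappa light chain) or Iglv (lambda light chain) and whose raw counts summed to 100 or more over the libraries of at least 1 of the 3 deposited count tables was taken. This gave 175 of the 348 V rows: 85 of 185 heavy, 87 of 160 kappa and 3 of 3 lambda segments. The members were chosen by their summed counts alone, which are therefore no result. Just inside the threshold were Ighv1-61 with 103 counts, Igkv1-99 with 113 and Ighv1-31 with 106 in the 3 tables. Just outside it were Igkv4-73 with 98 counts, Ighv1-11 with 87 and Ighv1-54 with 96. Of the members, 102 passed in all 3 tables, 37 in 2 and 36 in 1. They held 99.4% of V counts in the TLI/ATS table, 99.6% in the EpoR table and 99.7% in the spleen and lymph node table.

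The 20 libraries formed 8 groups. The TLI/ATS table held XCR1+CD8a+ cDC1s of WT C57BL/6 mice on day 15 of TLI/ATS, that is irradiation of all lymphoid tissue together with serum against thymocytes, and the same cells of untreated WT C57BL/6 mice, with 2 libraries per group. The EpoR table held the EpoR+ and EpoR- fractions of XCR1+CD8a+ cDC1s from EpoR-tdTomato reporter mice, all on day 15 of TLI/ATS, with 2 libraries per group. The spleen and lymph node table held CCR7+ XCR1+SIPRa- cDC1s of Epor-Xcr1-Cre cKO mice, in which the Cre is expressed from Xcr1 and removes the erythropoietin receptor gene, and of Eporflox/flox control mice, from peripheral lymph node (migratory cDC1s) and from spleen, with 3 libraries per group. No irradiation is named for these 4 groups, and ages are not given in the labels used here. The labels do not say whether libraries of a group came from separate animals, so p-values measure the spread between these libraries. Each table was counted separately and was tested only within itself.

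V segments are joined to D and J segments by recombination while B cells develop, and each B cell or plasma cell then transcribes 1 productive heavy and 1 productive light chain. Their mRNA can therefore reflect which B-lineage cells contributed RNA to a sample, and plasma cells carry it in great excess. The source of the V RNA in these libraries was not tested, and segment counts do not identify clones. Dendritic cells do not make antibodies. The heavy locus lies on chromosome 12, the kappa locus on chromosome 6 and the lambda locus, which is very small in the mouse, on chromosome 16. The constant genes that follow the V region define the antibody class: Ighm and Ighd mark naive cells, Ighg genes and Igha mark switched cells, and Igkc or the Iglc genes close the light chain.

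Neighbouring V segments are near copies of each other, which bears on whether a read can be placed. By coding sequence the median identity of a member to its nearest V row was 95.1%, 88 members had another V row at 95% identity or more, 3 had one at 99% or more, and none had an identical one. Members were 338 to 501 exonic bases long. The leading light chain segment was the same by counts and by counts per exonic base in 20 of 20 libraries, and the leading heavy segment in 18 of 20.

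The first printed pair consists of 2 kappa segments that were each among the leading light segments of 1 lymph node genotype. Igkv12-46 (chr6:69764523-69765022, minus strand of GRCm38) was abundant in cKO lymph node, and Igkv12-44 (chr6:69814631-69815154, minus strand) in control lymph node. They differ at 16 of 347 coding positions, and their longest shared run is 55 bases. Printed are coding positions 97 to 336, with the 15 differing bases of that stretch in capitals. Each pair is shown over the 240 bases in which it differs most, 5′ to 3′, read from the GENCODE transcripts on GRCm38.
Igkv12-46: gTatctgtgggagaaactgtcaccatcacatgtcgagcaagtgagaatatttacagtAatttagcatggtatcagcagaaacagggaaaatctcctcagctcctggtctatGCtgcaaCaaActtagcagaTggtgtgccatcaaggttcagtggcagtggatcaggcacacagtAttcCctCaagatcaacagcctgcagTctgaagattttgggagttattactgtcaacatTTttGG
Igkv12-44: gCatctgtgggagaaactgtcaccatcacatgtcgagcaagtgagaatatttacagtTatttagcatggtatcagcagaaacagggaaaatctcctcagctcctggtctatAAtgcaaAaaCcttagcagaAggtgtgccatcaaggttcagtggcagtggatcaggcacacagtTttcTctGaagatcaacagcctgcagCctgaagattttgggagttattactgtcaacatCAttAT

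The second pair consists of 2 heavy segments of the Ighv1 family. Ighv1-78 (chr12:115868773-115869227, minus strand of GRCm38) was found in cKO lymph node and Ighv1-55 (chr12:115208095-115208591, minus strand) in control lymph node. They differ at 55 of 351 coding positions. Positions 1 to 240 are printed, with the 48 differing bases in capitals.
Ighv1-78: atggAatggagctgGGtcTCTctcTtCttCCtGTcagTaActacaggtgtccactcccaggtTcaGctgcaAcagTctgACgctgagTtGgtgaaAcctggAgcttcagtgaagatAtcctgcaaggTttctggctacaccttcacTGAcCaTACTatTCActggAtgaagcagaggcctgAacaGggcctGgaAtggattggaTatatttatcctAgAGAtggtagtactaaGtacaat
Ighv1-55: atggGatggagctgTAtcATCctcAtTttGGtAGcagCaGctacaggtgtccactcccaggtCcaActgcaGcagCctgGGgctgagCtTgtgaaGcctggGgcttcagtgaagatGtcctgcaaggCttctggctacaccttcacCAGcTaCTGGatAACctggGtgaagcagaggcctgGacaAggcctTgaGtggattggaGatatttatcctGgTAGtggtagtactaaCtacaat

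The third pair shows the lambda segments with the closest sequences. Iglv2 (chr16:19260401-19260859, minus strand of GRCm38) and Iglv1 (chr16:19085017-19085500, minus strand) differ at 11 of 351 coding positions and share a run of 104 bases. Positions 3 to 242 are printed, with the 8 differing bases in capitals. In TLI/ATS library 1, Iglv2 had 1 count and Iglv1 6466 counts, while TLI/ATS library 2 had 4704 counts of Iglv2 and 20232 of Iglv1. Counts of even this pair were thus kept apart in 1 library.
Iglv2: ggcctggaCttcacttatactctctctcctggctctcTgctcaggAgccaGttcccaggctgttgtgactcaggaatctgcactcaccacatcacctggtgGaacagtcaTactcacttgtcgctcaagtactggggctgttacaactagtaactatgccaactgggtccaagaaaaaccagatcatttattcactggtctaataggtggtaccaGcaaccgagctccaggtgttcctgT
Iglv1: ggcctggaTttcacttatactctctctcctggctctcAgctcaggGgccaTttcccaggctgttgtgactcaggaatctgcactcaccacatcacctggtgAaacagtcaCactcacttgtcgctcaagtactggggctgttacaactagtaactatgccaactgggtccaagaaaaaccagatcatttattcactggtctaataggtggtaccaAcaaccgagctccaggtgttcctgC

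Depth ran from 26.6 to 77.6 M counts per library, so 3 counts, used here as the detection floor, equal 0.0387 to 0.113 CPM, counts scaled to 1 M counts per library. Epor had 3.04 and 1.89 CPM after TLI/ATS and was at 0 in both untreated libraries. It had 14.1 and 17.3 CPM in EpoR+ cDC1s, against 0.0997 and 0.327 CPM in EpoR- cDC1s. In lymph node it was at 0 in the 3 cKO libraries and between 0.108 and 0.682 CPM in controls, and in spleen it was between 0 and 0.0621 CPM in cKO and between 0 and 0.169 CPM in controls, too low to check the deletion there. Every one of the 14 cDC1 identity genes had counts in every library.

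V RNA was present in all 20 libraries. It amounted to 536 and 1380 CPM after TLI/ATS, against 501 and 475 CPM in untreated cDC1s. EpoR+ cDC1s had 2661 and 1532 CPM, against 1758 and 977 CPM in EpoR- cDC1s. Lymph node cKO libraries had 43.0, 45.2 and 49.4 CPM, and lymph node controls 46.8, 45.7 and 45.3 CPM, so these groups overlapped. Spleen cKO libraries had 904, 1009 and 792 CPM, and spleen controls 326, 351 and 341 CPM, so these groups did not overlap. As the V segments were chosen with earlier results of these data known, no test was made of these sums. In bulk RNA, fewer cells of a type and less RNA per cell cannot be told apart.

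**Figure D1:**
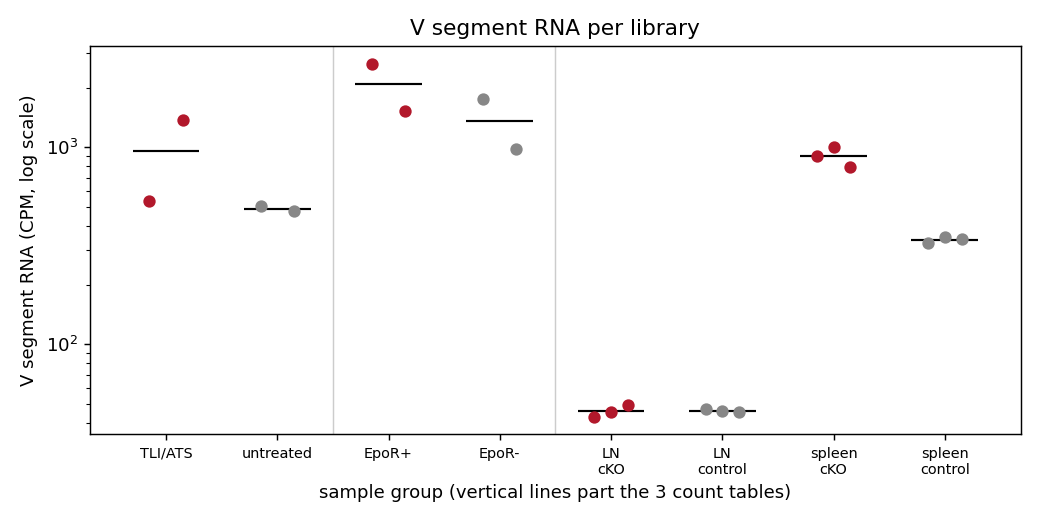
V segment RNA of each library in CPM on a log scale, by sample group, with 1 point per library and the group mean as a line. Both lymph node (LN) groups lie between 43.0 and 49.4 CPM, while spleen cKO libraries lie at 792 to 1009 CPM above spleen controls at 326 to 351 CPM.

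The evenness of V use was described by the effective number of segments, the number of equally used segments that would give the same concentration (inverse Simpson index). It was 14.2 and 13.9 after TLI/ATS, against 54.0 and 57.0 in untreated cDC1s. It was 60.6 and 72.7 in EpoR+ and 61.2 and 68.2 in EpoR- cDC1s, which overlapped. In lymph node it was 7.52, 8.27 and 7.99 in cKO and 7.82, 7.50 and 8.55 in controls. In spleen it was 43.8, 45.3 and 39.3 in cKO and 41.7, 40.6 and 44.8 in controls. Genotypes overlapped in both tissues. The lymph node libraries held only 1675 to 2454 V counts each, against 9349 to 40293 in spleen. When each library was thinned to 1675 V counts, lymph node libraries kept an effective number of 7.45 to 8.55 and spleen libraries one of 39.5 to 46.0, so the gap between tissues was as large at equal V depth.

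**Figure D2:**
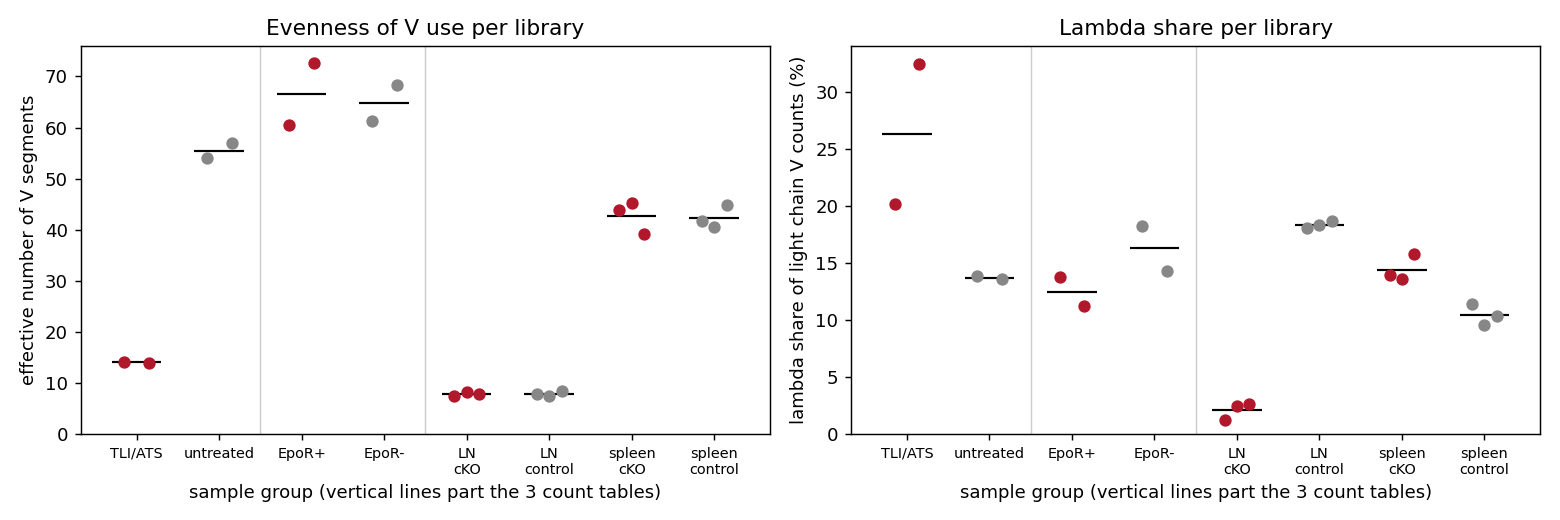
Effective number of V segments (left) and lambda share of light chain V counts in percent (right) by sample group, with 1 point per library and the group mean as a line (LN, lymph node). TLI/ATS and lymph node libraries have the lowest effective numbers, and the lambda share is 1.3 to 2.6% in lymph node cKO against 18.1 to 18.7% in lymph node control.

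The lymph node libraries of the 2 genotypes overlapped in the amount of V RNA and held few of their V counts in common. The overlap of 2 libraries was measured as the percentage of V counts held in common, the sum over segments of the smaller of the 2 shares. It was 87.8 to 88.5% between cKO libraries, 85.3 to 87.5% between control libraries, and 4.90 to 9.33% between a cKO and a control library. Heavy segments taken alone gave 11.8 to 20.4% across genotypes, and light segments 3.23 to 5.96%. Libraries of a group differed by more than counting noise, which does not show that they came from separate animals. Each was counted as 1 sample, and the labels do not settle this. If a group came from 1 animal or pool, differences between genotypes could not be told apart from differences between animals. The chi-square per degree of freedom within lymph node groups was 3.50 to 9.77 over V segments, and in the 3 tables it was 13.5 or more over all genes for pairs within a group. It covers counting error only, since PCR reads and pairs counted at both ends are not independent molecules.

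In lymph node, 20 of the 148 members tested passed in cKO against control, 11 higher and 9 lower, in edgeR's quasi-likelihood test, adjusted over all genes after Benjamini-Hochberg. In all 79 genes (0.455%) passed, 0.288% higher and 0.167% lower. At an unadjusted p under 0.05 it was 39 members and 1304 genes. When the V rows were scaled to the total V counts of each library, so that a share is tested rather than a level, 20 passed again. Of the 11 that were higher, 5 had no count in any control library, and of the 9 that were lower, 6 had none in any cKO library. Members at 0 in a whole group numbered 109 of 175 in cKO and 106 of 175 in control lymph node.

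Among the kappa segments of cKO lymph node, Igkv6-23 led in libraries 1 and 2 and Igkv12-46 in library 3. Igkv6-23 had 10.2, 9.76 and 10.3 CPM in cKO, against 0.0245, 0.122 and 0.027 CPM in controls. These were 30.3, 27.5 and 27.0% of light chain V counts in cKO and 0.1 to 0.3% in controls. The rise was 7.35 on the log2 scale (SE 0.41, adjusted p = 5.33e-08). Igkv12-46 had 9.5, 9.53 and 10.7 CPM in cKO, against 0.049, 0.0487 and 0.027 CPM in controls, a log2 difference of 7.78 (SE 0.43, adjusted p = 5.33e-08). Each of these groups lay far apart in all 3 libraries. Igkv6-15 had 4.2, 4.01 and 6.06 CPM in cKO and 0.049, 0 and 0.622 CPM in controls (log2 4.46, SE 0.72, adjusted p = 0.0071). Igkv5-39 had 3.78, 3.86 and 4.25 CPM in cKO and 0.049, 0 and 0.108 CPM in controls (log2 6.20, SE 0.56, adjusted p = 1.74e-05). Igkv13-85 had 1.78, 2.85 and 2.66 CPM in cKO and no count in controls, at least 96.2-fold higher if 3 counts over the whole group are taken as the limit of detection.

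Among the heavy segments of cKO lymph node, Ighv5-4 had 2.44, 2.41 and 2.52 CPM, against 0, 0.0975 and 0.0541 CPM in controls (log2 5.52, SE 0.56, adjusted p = 6.09e-05). It held 26.0, 24.7 and 22.2% of heavy V counts in cKO. Ighv1-78 had 76, 66 and 111 counts in cKO and none in controls, at least 76.5-fold higher. Ighv14-4 had 51, 91 and 85 counts in cKO and none in controls, at least 68.7-fold higher. Ighv1-26 had 68, 57 and 59 counts in cKO and 2, 0 and 7 in controls (log2 4.15, SE 0.76, adjusted p = 0.0187). Together with Ighv1-81, 5 segments made up 90.04 to 96.3% of heavy V counts in each cKO library.

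Control lymph node was led by other segments. Igkv12-44 had 0.117, 0.129 and 0.463 CPM in cKO, against 8.43, 9.65 and 5.62 CPM in controls (log2 -4.97, SE 0.42, adjusted p = 1.08e-05). Igkv4-57 was at 0 in the 3 cKO libraries and had 386, 323 and 303 counts in controls, at least 372-fold lower in cKO. Igkv8-30 was at 0 in cKO and had 240, 291 and 273 counts in controls, at least 295-fold lower in cKO. Igkv10-96 was at 0 in cKO and had 214, 188 and 183 counts in controls, at least 215-fold lower in cKO. None of these counts overlapped between genotypes. In these libraries a read pair can add 2 counts, so folds given as a lower bound can be too high.

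The heavy segments of control lymph node were Ighv3-6, Ighv1-55 and Ighv2-5. Ighv3-6 had 0, 2 and 2 counts in cKO, against 125, 77 and 101 in controls (log2 -6.22, SE 0.60, adjusted p = 3.48e-05). Ighv1-55 had none in cKO, against 98, 87 and 122 counts in controls, at least 113-fold lower in cKO. Ighv2-5 had none in cKO, against 93, 69 and 66 counts in controls, at least 83.7-fold lower in cKO (adjusted p = 0.017), a call that was lost without control library 1 and without any 1 of the cKO libraries. Leading segments of both genotypes thus included members of the Ighv1 and Igkv12 families.

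Ighv1-81 was the one leading segment that both genotypes carried. It had 1.62, 1.42 and 2.54 CPM in cKO and 0.956, 1.02 and 1.46 CPM in control lymph node, which overlapped (log2 0.73, SE 0.30, adjusted p = 0.576). It held 14.6 to 22.4% of heavy V counts in cKO and 10.2 to 13.8% in control.

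**Figure D3:**
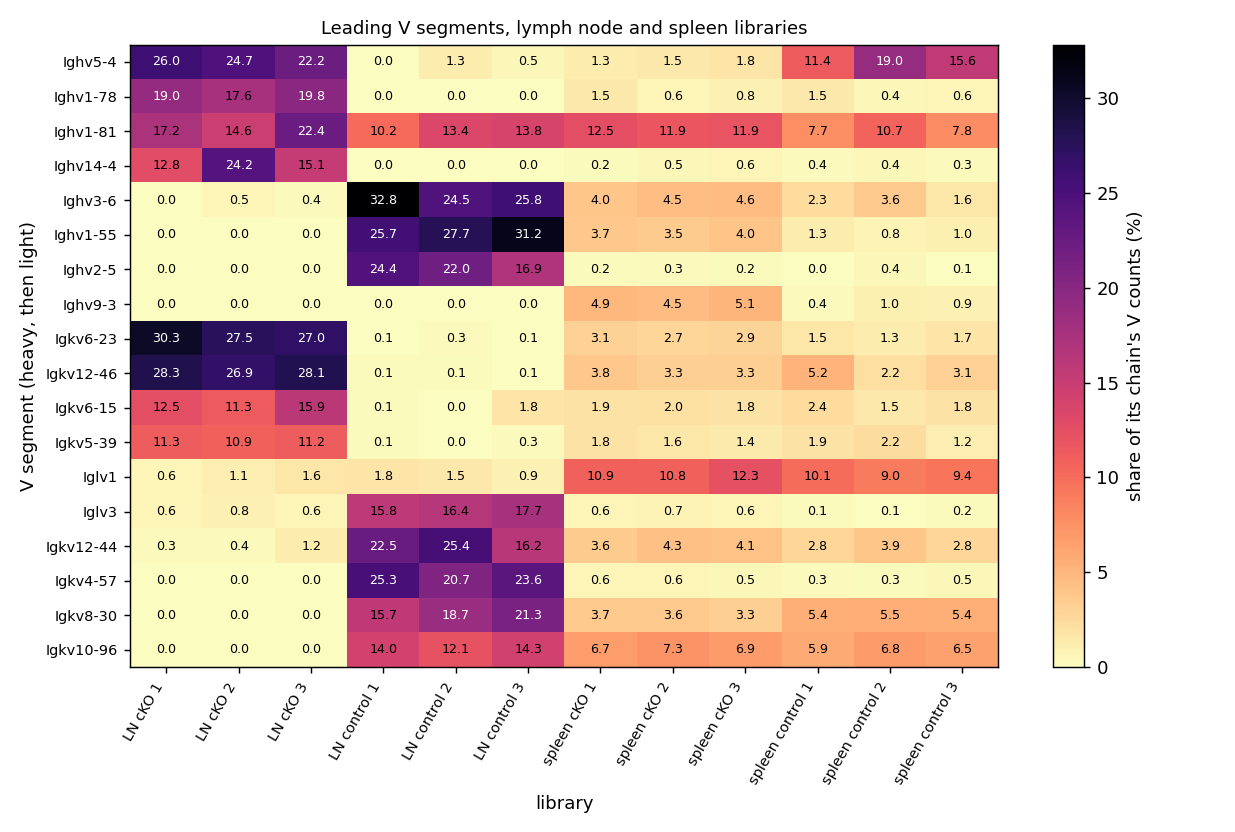
Share of the heavy or light chain V counts, in percent, held by the leading segments (rows) in each of the 12 lymph node (LN) and spleen libraries (columns). Igkv6-23, Igkv12-46 and Ighv5-4 stand out in the 3 cKO lymph node libraries and Ighv3-6, Ighv1-55 and Igkv4-57 in the 3 control lymph node libraries, whereas spleen libraries spread over many segments.

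The lambda segments showed the same split. Lambda made up 1.26, 2.48 and 2.64% of light chain V counts in cKO lymph node, against 18.1, 18.3 and 18.7% in control lymph node. Nearly all of the control share was Iglv3, a segment named here after its values were seen. Iglv3 had 0.211, 0.285 and 0.221 CPM in cKO and 5.93, 6.24 and 6.14 CPM in controls (log2 -4.65, SE 0.42, adjusted p = 1.74e-05). The constant gene Iglc2, which follows Iglv2 and Iglv3 in the mouse locus, had 2.02, 0.492 and 1.69 CPM in cKO and 9.41, 11.5 and 11.9 CPM in controls (log2 -2.93, SE 0.34, adjusted p = 0.000267). Iglv1 did not differ beyond its spread, at 0.211, 0.388 and 0.624 CPM in cKO and 0.662, 0.56 and 0.297 CPM in controls.

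The constant genes set these lymph node differences beside the antibody classes. Of the 8 Ig heavy constant genes none passed in cKO against control lymph node by edgeR's test. At an unadjusted p under 0.05 it was 4 of 8. Igha had 73.9, 86.5 and 77.5 CPM in cKO and 73.3, 56.8 and 81.7 CPM in controls. Ighm had 134, 128 and 161 CPM in cKO and 186, 180 and 158 CPM in controls. Jchain, which joins IgA and IgM into polymers, had 25.3, 27.3 and 26.8 CPM in cKO and 25.2, 26.4 and 25.8 CPM in controls. Summed B cell markers were 34.6 to 40.0 CPM in cKO and 45.1 to 60.7 CPM in controls, with none of the 15 past edgeR's test and 2 at an unadjusted p under 0.05. Their part in the segment differences was not tested.

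In spleen the cKO libraries had more V RNA over many segments. Of 148 members tested, 31 passed, 28 higher and 3 lower, beside 0.611% of all genes, 0.49% higher and 0.121% lower. Of the 28, 10 had no count in the controls. The median log2 difference of the members tested was 1.61, and 0 over all genes. On the share of V counts, 18 passed, 14 higher and 4 lower, beside 0.495% of all genes, 0.392% higher and 0.104% lower. Leaving out 1 library moved the count of 31 by over 1.5 times for each cKO library: 14 passed without cKO library 1, 13 without library 2 and 17 without library 3. On shares it was 3, 3 and 6 without those libraries, and 12 without control library 1 and 11 without control library 2. Of the segments described next, Ighv3-6, Ighv5-4, Ighv9-3, Igkv1-110, Igkv8-28, Igkv9-120 and Iglv2 lost their call on level without 1 of the libraries, and Ighv1-55, Ighv9-3, Igkv4-58 and Igkv8-28 lost it on share. For Iglv1 the call was not followed in this way.

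The segments that rose in spleen cKO included the leading ones of the tissue. Iglv1, the most abundant light segment in every spleen library, had 74.2, 80.8 and 73.9 CPM in cKO and 25.5, 24.1 and 23.4 CPM in controls (log2 1.61, SE 0.21, adjusted p = 0.00233, edgeR's quasi-likelihood test). Its share of light chain V counts was 10.8 to 12.3% in cKO and 9.04 to 10.1% in controls and did not pass (adjusted p = 0.653). Ighv1-81 had 27.8, 31 and 23 CPM in cKO and 5.64, 9.09 and 7.16 CPM in controls (log2 1.86, SE 0.28, adjusted p = 0.00536). Igkv1-110 had 47.6, 47.7 and 46.5 CPM in cKO and 10.1, 14.4 and 11.3 CPM in controls (log2 1.95, SE 0.34, adjusted p = 0.0164). Iglv1 and Ighv1-81 did not overlap in level between the genotypes. Igkv1-110 was named by a rule that includes the lack of overlap, so this is no result for it.

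Ighv9-3 and Ighv1-55 rose in share as well as in level. Ighv9-3 had 11, 11.8 and 9.78 CPM in spleen cKO and 0.28, 0.864 and 0.818 CPM in spleen controls (log2 4.00, SE 0.52, adjusted p = 0.00649), and its share of V counts rose by 2.66 on the log2 scale (SE 0.48, adjusted p = 0.0423). Ighv1-55 had 8.35, 9.22 and 7.77 CPM in cKO and 0.925, 0.639 and 0.903 CPM in controls (log2 3.30, SE 0.40, adjusted p = 0.00233). Iglv2 had 16.5, 15.9 and 17.1 CPM in cKO and 2.97, 1.01 and 1.89 CPM in controls (log2 3.02, SE 0.53, adjusted p = 0.0169), with a share that did not pass (adjusted p = 0.187). Igkv6-23, Ighv3-6 and Igkv9-120 rose in level by 2.30, 2.21 and 1.80 on the log2 scale.

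Other segments ran the opposite way in spleen. Ighv5-4, the leading heavy segment of the spleen controls, had 2.85, 3.94 and 3.38 CPM in cKO and 8.3, 16.1 and 14.3 CPM in controls (log2 -1.97, SE 0.40, adjusted p = 0.0363). It held 1.3 to 1.8% of heavy V counts in spleen cKO and 11.4, 19.0 and 15.6% in spleen controls. Igkv8-28 had 1.08, 0.838 and 0.553 CPM in cKO and 7.54, 5.45 and 4.63 CPM in controls (log2 -2.86, SE 0.54, adjusted p = 0.0427). Igkv4-58 had 1.55, 0.993 and 1.28 CPM in cKO and 4.68, 6.46 and 4.34 CPM in controls and fell in share by 3.39 on the log2 scale (SE 0.55, adjusted p = 0.0284).

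Spleen libraries of the 2 genotypes still held most V counts in common. The shared percentage was 91.7 to 93.2% between cKO libraries, 83.2 to 86.5% between control libraries and 66.6 to 69.9% across genotypes. Of the constant genes, 3 of 8 heavy and 2 of 4 light ones were higher in spleen cKO by edgeR's test, and none was lower. At an unadjusted p under 0.05 it was 6 of 8 and 4 of 4. Igha had 2040, 2133 and 1978 CPM in spleen cKO and 947, 1010 and 815 CPM in controls (log2 1.12, SE 0.10, adjusted p = 3.93e-05). Ighg2b had 47.3, 46.5 and 40.3 CPM in cKO and 1.65, 1.5 and 1.02 CPM in controls (log2 4.97, SE 0.35, adjusted p = 2.61e-06). Igkc, Iglc1, Ighg3 and Jchain rose too. Of the 15 plasma cell genes Jchain, Txndc5 and Xbp1 rose and none fell, with a summed level of 1391 to 1470 CPM in cKO and 918 to 953 CPM in controls. None of the 15 B cell genes passed edgeR's test, 5 had an unadjusted p under 0.05, and their sums were 68.8 to 84.4 CPM in cKO and 44.3 to 66.9 CPM in controls. The part of plasma cell RNA in the V difference was not tested, and the summed list does not measure plasma cell content.

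The difference between cKO and control was unlike in lymph node and spleen for 18 of the 148 members tested, beside 0.317% of all genes. It was higher in lymph node relative to spleen for 8 and lower for 10, beside 0.127% and 0.19% of all genes. On share 17 passed, 9 higher and 8 lower, beside 0.305% of all genes, 0.127% higher and 0.179% lower. Ighv5-4 showed opposite directions, higher in cKO lymph node and lower in cKO spleen (difference 7.49 on the log2 scale, SE 0.69, adjusted p = 3.11e-05). Ighv3-6 and Ighv1-55 ran the other way round, lower in cKO lymph node and higher in cKO spleen. Ighv3-6 differed by -8.42 on the log2 scale (SE 0.74, adjusted p = 1.63e-05). Igkv6-23 was higher in cKO in both tissues, by 7.35 in lymph node and 2.30 in spleen, a difference of 5.04 (SE 0.50, adjusted p = 6.7e-05).

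Lymph node and spleen differed in V RNA in both genotypes. The labels give the same surface markers for both tissues and call the lymph node cells migratory. In controls 110 of 148 members passed, 5 higher and 105 lower in lymph node, beside 41.3% of all genes, 21% higher and 20.3% lower. In cKO 140 passed, none higher and 140 lower, beside 29.4% of all genes, 14.1% higher and 15.3% lower. At an unadjusted p under 0.05 it was 141, and DESeq2 called 144. The log2 ratio of mean V content, lymph node over spleen, was -2.89 in controls and -4.30 in cKO. On shares of V counts 81 members passed in controls, 12 higher and 69 lower, beside 41.1% of all genes, 21.1% higher and 20% lower. In cKO 93 passed, 11 higher and 82 lower, beside 29.1% of all genes, 14.2% higher and 14.9% lower.

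Level and share ran the same way for some of these segments and opposite ways for others. Igkv4-57 had 9.46, 7.87 and 8.19 CPM in control lymph node, more than the 0.701, 0.676 and 1.27 CPM in control spleen (log2 2.95, SE 0.43, adjusted p = 0.0001), and it was higher in share too (log2 6.14). Iglv1 had 0.662, 0.56 and 0.297 CPM in control lymph node and 25.5, 24.1 and 23.4 CPM in control spleen (log2 -5.86, SE 0.28, adjusted p = 4.98e-10), and it was lower in share too (log2 -2.69). Igkv10-96 and Igkv8-30 were lower in control lymph node than in control spleen by level (log2 -2.03 and -1.33) and higher by share (log2 1.15 and 1.85), and all 4 values passed. In cKO, Ighv5-4 had 2.44, 2.41 and 2.52 CPM in lymph node and 2.85, 3.94 and 3.38 CPM in spleen, a level that did not pass (adjusted p = 0.199), while its share of V counts was higher in lymph node by 3.83 on the log2 scale (SE 0.42, adjusted p = 5.69e-06).

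Markers of other cells differed between the tissues as well. All 10 T cell genes were higher in lymph node in both genotypes, with summed levels of 145 to 154 CPM in cKO lymph node against 9.86 to 11.9 CPM in cKO spleen, and of 222 to 242 CPM in control lymph node against 5.80 to 13.3 CPM in control spleen. Of 15 plasma cell genes, 9 were lower in lymph node in cKO, and in controls 7 were lower and Sdc1 was higher. Their sums were 680 to 699 CPM in cKO lymph node against 1391 to 1470 CPM in cKO spleen. In controls they were 691 to 719 CPM in lymph node against 918 to 953 CPM in spleen. The sums run over all 15 listed genes and do not measure plasma cell content. Of the constant genes, 6 of 8 heavy and 4 of 4 light ones were lower in lymph node in both genotypes. Of 15 B cell genes 1 was higher and 5 lower in cKO, and 3 higher and 2 lower in controls. Of 14 cDC1 identity genes, 11 were lower in cKO and 10 in controls, and Zbtb46 was higher in both. The part of these cells in the V difference was not tested.

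Both lymph node genotypes held a small part of their V counts in common with either spleen. Lymph node cKO libraries shared 18.7 to 20.6% of V counts with spleen cKO and 19.96 to 21.4% with spleen control. Lymph node control libraries shared 21.3 to 24.9% with spleen cKO and 19.1 to 22.6% with spleen control.

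**Figure D4:**
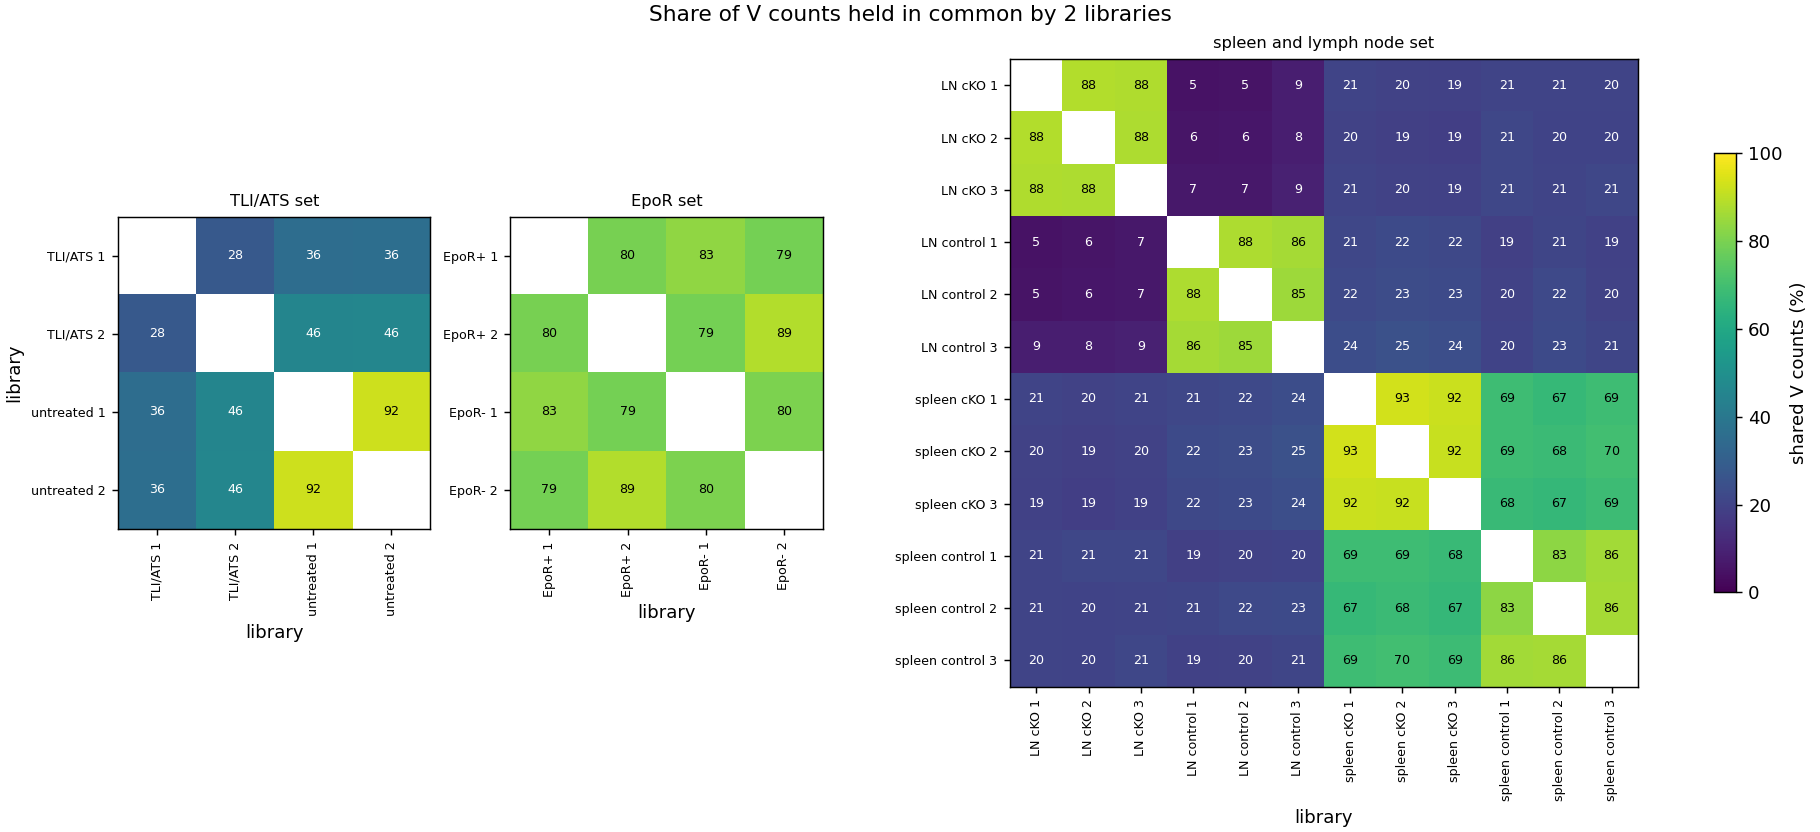
Percentage of V counts that 2 libraries of a table hold in common (colour and printed value, 0 to 100%), with libraries as rows and columns in each of the 3 tables and LN for lymph node. The 2 lymph node genotypes share 4.90 to 9.33%, the TLI/ATS libraries share 28.0% with each other, and the untreated libraries share 92.3%.

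TLI/ATS libraries were each dominated by a few segments, and mostly by different ones. They shared 28.0% of V counts with each other, and heavy segments alone gave 10.0%. Each shared 35.7 to 46.1% with the untreated libraries, while the untreated libraries shared 92.3%. The 10 leading segments held 69.6 and 60.8% of V counts after TLI/ATS, against 32.1 and 30.8% in untreated cDC1s.

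In TLI/ATS library 1 the leading heavy segment was Ighv1-80. It had 30.1 CPM in library 1 and 4.44 CPM in library 2 after TLI/ATS, against 4.18 and 4.44 CPM in untreated cDC1s. Igkv4-55 had 70.7 and 3.52 CPM after TLI/ATS, against 9.65 and 8.18 CPM untreated. Igkv9-120, Ighv7-1 and Ighv1-64 were likewise high in library 1 alone, at 46.2, 13.5 and 12.7 CPM, where library 2 had 9.55, 0.148 and 0.178 CPM. The untreated values of these 3 lay between those of the TLI/ATS libraries.

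In TLI/ATS library 2 other segments led. Ighv3-6 had 0.0773 CPM in library 1 and 34.6 CPM in library 2, against 2.14 and 2.39 CPM untreated. Igkv1-135 had 0.709 and 122 CPM after TLI/ATS, against 11.4 and 11 CPM untreated. Ighv1-15 and Ighv14-4 had 28.9 and 25.4 CPM in library 2, where library 1 had 0.193 and 0.438 CPM. For each of these segments the untreated libraries lay between the TLI/ATS ones. Iglv1 led the light chains of both TLI/ATS libraries, at 83.4 and 300 CPM, against 38.3 and 35.2 CPM untreated, and did not pass (log2 2.55, SE 0.66, adjusted p = 0.15).

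**Figure D5:**
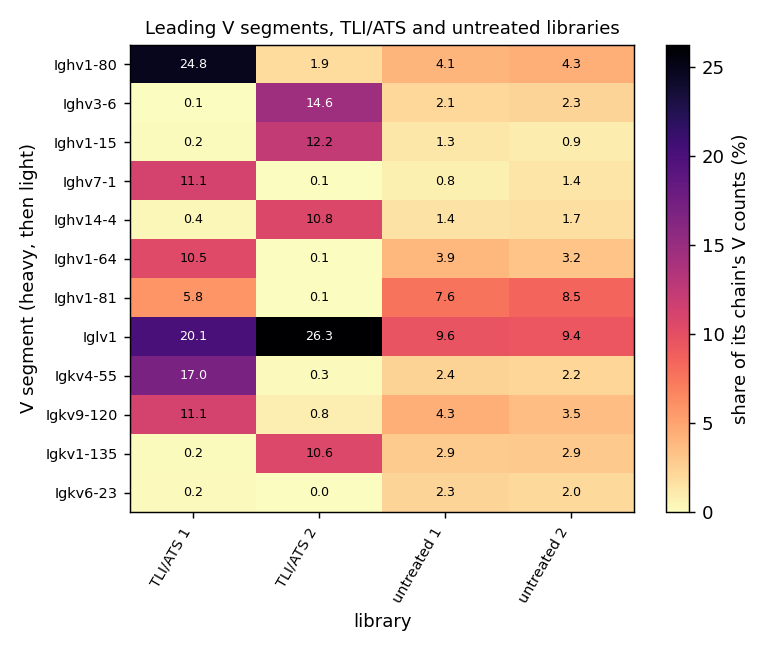
Share of the heavy or light chain V counts, in percent, held by leading segments (rows) in the 2 TLI/ATS and 2 untreated libraries (columns). Ighv1-80 holds 24.8% of heavy V counts in TLI/ATS library 1 and 1.9% in library 2, and Ighv3-6 holds 0.1% and 14.6%, while the untreated libraries resemble each other.

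Of 156 members tested, 25 passed after TLI/ATS, 2 higher and 23 lower, beside 2.7% of all genes, 0.499% higher and 2.2% lower. Of the 23 that fell, 10 had no count in either TLI/ATS library. Igkv6-23 had 0.967 and 0.312 CPM after TLI/ATS, against 9.2 and 7.61 CPM untreated (log2 -3.61, SE 0.55, adjusted p = 0.0474, edgeR's quasi-likelihood test). The 2 that rose were Igkv15-103, with 18.4 and 14.2 CPM against 3.16 and 4.39 CPM untreated (log2 2.23, SE 0.27, adjusted p = 0.0267), and Igkv5-39, with 14 and 18.9 CPM against 4.11 and 3.62 CPM untreated (log2 2.22, SE 0.29, adjusted p = 0.0329). On shares of V counts 33 passed, all of them lower, beside 2.91% of all genes, 0.534% higher and 2.38% lower. Shares sum to a fixed total in each library, so a few leading segments lower the shares of the rest. Without TLI/ATS library 1 there were 121 and without library 2 there were 115 calls on level, the lone library being taken to vary like the untreated pair. On shares these counts were 122 and 120. The calls of Igkv15-103 and Igkv5-39 were lost without 1 of the libraries.

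Of the 7 Ig heavy constant genes tested after TLI/ATS, Igha, Ighd and Ighg2b fell and none rose. None of the 4 light ones passed edgeR's test, and 2 had an unadjusted p under 0.05. Heavy constant genes summed to 1287 and 1997 CPM after TLI/ATS, against 1246 and 1260 CPM untreated. Light ones summed to 807 and 1968 CPM, against 954 and 914 CPM untreated. Igha had 0.297 and 0.445 CPM, against 18.5 and 18.2 CPM untreated (log2 -5.50, SE 0.35, adjusted p = 0.00615). Ighd had 4.83 and 5.17 CPM, against 73 and 75.3 CPM untreated (log2 -3.76, SE 0.20, adjusted p = 0.00405). Of the 15 B cell markers 13 fell and none rose, with summed levels of 116 and 91.2 CPM after TLI/ATS and 869 and 872 CPM untreated. Of the 15 plasma cell genes Tnfrsf13b fell and no other passed edgeR's test, 7 had an unadjusted p under 0.05, and Jchain had 154 and 240 CPM, against 70.6 and 63.8 CPM untreated (adjusted p = 0.067). All 10 T cell genes fell, with sums of 18.04 and 14.8 CPM after TLI/ATS, against 566 and 558 CPM untreated. Of 10 plasmacytoid dendritic cell genes 8 fell, with sums of 238 and 239 CPM against 1148 and 1128 CPM untreated. Of 10 macrophage genes 7 rose, with sums of 1437 and 978 CPM against 199.9 and 217 CPM untreated. The part of these cells in the V differences was not tested.

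EpoR+ and EpoR- libraries of the same number shared 83.3 and 88.5% of V counts, and those of different number 79.0 and 79.2%. The EpoR+ libraries shared 79.6% with each other and the EpoR- libraries 80.3%. The labels do not say that a number pairs libraries. With the replicate number as a block, 55 members passed on level and 17 on share, against the 9 and 4 given next without it. The share of all genes that passed with the block is not given here. Of 167 members tested, 9 passed and all 9 were higher in EpoR+ cDC1s, beside 16.7% of all genes, 11.9% higher and 4.75% lower. On shares of V counts 4 passed, 2 higher and 2 lower, beside 16.9% of all genes, 12.1% higher and 4.84% lower. Without EpoR+ library 1 none passed edgeR's test on either scale, so that all calls named next were lost there, and without EpoR- library 1 it was 21 on levels and 1 on shares. Without EpoR+ library 2 and without EpoR- library 2 it was 2 and 11 on shares.

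The segments that rose in EpoR+ cDC1s were not the leading ones. Ighv1-4 had 5.33 and 6.75 CPM in EpoR+, against 1.62 and 1.28 CPM in EpoR- cDC1s (log2 2.04, SE 0.35, adjusted p = 0.0159, edgeR's quasi-likelihood test). Igkv4-63 had 6.8 and 5.25 CPM, against 1.89 and 1.54 CPM in EpoR- (log2 1.79, SE 0.35, adjusted p = 0.0229). Ighv8-8, Igkv17-121, Igkv14-126 and Igkv6-23 rose by 1.68, 1.32, 1.27 and 0.96 on the log2 scale. By share, Ighv8-5 was lower in EpoR+ by log2 -1.48 (SE 0.32, adjusted p = 0.032) and Ighv10-1 by log2 -0.62 (SE 0.15, adjusted p = 0.0458).

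The leading segments did not pass between the fractions. Iglv1 had 158 and 73.4 CPM in EpoR+ and 114 and 55.4 CPM in EpoR- cDC1s, which overlapped (adjusted p = 0.698). Ighv1-26 had 53.9 and 59.2 CPM in EpoR+ and 43.9 and 37.8 CPM in EpoR- cDC1s, which did not overlap (log2 0.45, SE 0.14, adjusted p = 0.0886). Ighg1 had 474 and 396 CPM in EpoR+ and 154 and 138 CPM in EpoR- cDC1s (log2 1.56, SE 0.14, adjusted p = 0.00153), and Igha and Ighg2c rose as well. All 10 macrophage markers rose in EpoR+ cDC1s, with summed levels of 18011 and 18387 CPM, against 261 and 251 CPM in EpoR-. Of 14 cDC1 identity genes 13 fell in EpoR+, with sums of 10399 and 8953 CPM, against 19884 and 18456 CPM in EpoR-. B cell markers summed to 291 and 270 CPM in EpoR+ and 108 and 98.1 CPM in EpoR-, with 4 of 13 tested higher and 2 lower. Their part in the V levels was not tested.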

How the data were processed

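RNA was measured by bulk RNA sequencing of sorted cDC1s in 20 libraries. Raw counts per gene were deposited by the authors in 3 tables. The TLI/ATS table was made with HISAT2, SAMtools, StringTie and featureCounts on GRCm38, per the submitters' processing notes. Their versions are not given in the sources used here. In the EpoR table the counter was featureCounts 2.0.3, per the file headers. The spleen and lymph node table came from HISAT2 2.1.0 and featureCounts 2.0.8 on Ensembl GRCm38 annotation release 100, per the submitters' processing notes and the file headers. Where each end of a pair was counted, a pair can add 2 counts. The exonic length of each gene was also taken from the deposited tables. The columns of the EpoR table are named N and P and were taken as EpoR- and EpoR+.

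CPM used the total of each library, 26.6 to 77.6 M counts. Within each table, genes that passed filterByExpr (minimum count 10, minimum total 15) were tested with edgeR 4.0.16 (quasi-likelihood, robust, TMM scaling) in R 4.3.3, with Benjamini-Hochberg adjustment over all genes and a threshold of 0.05. A second fit scaled the V rows to the total V counts of each library. DESeq2 1.42.0, its size factors, no filter, a replicate block and leaving out each library were alternatives. Python 3.11.15, scipy 1.17.1 and matplotlib 3.10.9 were used for descriptions and plots. The tests were tried on simulated counts.

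The labels pair no libraries. The floor of 3 counts covers counting error only, and PCR copies were not removed by molecular identifiers. Segments named were those with 10% or more of the V counts of their chain in a library, up to 12 per table, and in each comparison up to 8 per direction with the largest fold change on level and up to 5 on share, among those past the threshold, without overlap and at a mean log2 CPM of 1 or more. The members, gene lists and tests were chosen with earlier results of these data known.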

Additional observations from a re-analysis of the deposited data

Results flagged for a closer look

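For 15 of the named V segments the difference between cKO and control was unlike in lymph node and spleen. This was by edgeR's quasi-likelihood test between the tissues. Igkv12-46, Igkv6-23, Igkv5-39, Igkv10-96, Igkv8-30 and Igkv12-44 met a naming rule that includes passing this same test. The number of 15 is therefore no result. Of all genes tested, 0.317% passed. The difference (lymph node minus spleen, log2) was positive for Ighv1-78 at 7.50 (adjusted p = 0.023), Ighv14-4 at 7.35 (adjusted p = 0.0449), Ighv5-4 at 7.49 (adjusted p = 3.11e-05), Igkv12-46 at 6.41 (adjusted p = 7.32e-06), Igkv13-85 at 6.72 (adjusted p = 0.042), Igkv5-39 at 4.94 (adjusted p = 0.00328) and Igkv6-23 at 5.04 (adjusted p = 6.7e-05). It was negative for Ighv1-55 at -12.82 (adjusted p = 3.39e-06), Ighv2-5 at -10.76 (adjusted p = 0.0267), Ighv3-6 at -8.42 (adjusted p = 1.63e-05), Igkv10-96 at -11.92 (adjusted p = 4.02e-08), Igkv12-44 at -6.66 (adjusted p = 6.91e-06), Igkv15-103 at -5.92 (adjusted p = 0.0175), Igkv4-57 at -13.21 (adjusted p = 4.69e-06) and Igkv8-30 at -11.63 (adjusted p = 1.18e-07). Where a group had no count, the fitted value depends on the prior count and is no bound. When 1 library was left out in turn, the call was lost in 11 of 12 fits for Ighv14-4, in 8 of 12 for Ighv2-5 and in 7 of 12 for Ighv1-78. It was lost in none for the other segments, except that Igkv13-85 and Igkv15-103 were not refitted in this way.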

How the results depend on the processing

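Of 64 recomputed counts and sums, 47 stayed within 1.5 times the reported count or within the spread. With the replicate block, members called on level numbered 57 for TLI/ATS, 55 for EpoR+, 14 for spleen cKO and 11 for the difference between tissues, and on share 75, 17 and 5 for the first 3. By the labels, same-numbered libraries have only a number in common. Their deviations from the group means correlated at -0.07 over all genes and -0.11 over V segments in the TLI/ATS table. In the EpoR table, which has 2 pairs, they correlated at 0.52 and 0.37. Whether EpoR+ and EpoR- libraries of a number came from the same animals is not given in the labels. DESeq2 called 51, 16, 64 and 44 members in the same order. Without the filter on low counts it was 15 for EpoR+, 56 for spleen cKO and 33 on level and 28 on share for the difference. The share of all genes called in these alternative fits is not given here, so the counts are not set against all genes. On TMM library sizes the log2 ratio of V content, lymph node over spleen, was -3.18 in control and -4.54 in cKO.

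Leaving out 1 library gave, on level and share, 25 to 121 and 34 to 122 members for TLI/ATS, 0 to 21 and 0 to 11 for EpoR+, 13 to 37 and 3 to 20 for spleen cKO, 18 to 20 and 18 to 21 for lymph node cKO, 98 to 110 and 78 to 83 for lymph node over spleen in control, 127 to 131 and 76 to 81 in cKO, and 12 to 23 and 14 to 21 for the difference. An arm left with 1 library was assumed to vary like the other. V content ratios (log2) ran 0.134 to 1.498 for TLI/ATS, 0.16 to 1.10 for EpoR+, 1.32 to 1.495 for spleen, -0.059 to 0.042 for lymph node, and -2.91 to -2.86 and -4.38 to -4.21 between tissues.

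Directions turned for Ighv1-15 (-2.48 to 4.87), Ighv1-64 (-4.14 to 1.84, and -0.85 with the replicate block), Ighv14-4 (-1.80 to 4.204), Ighv3-6 (-4.78 to 4.13), Ighv7-1 (-2.72 to 3.62), Igkv1-135 (-3.93 to 3.64), Igkv4-55 (-1.14 to 3.04) and Igkv9-120 (-0.48 to 1.65) when a TLI/ATS library was left out, and for Iglv1 in EpoR+ (-0.23 to 1.05), Ighv3-6 in control (-0.13 to 0.40) and Ighv1-78 in cKO (-0.57 to 0.073) between tissues. Scaled to V counts, lymph node over spleen turned positive in cKO for Ighv1-81 (0.42), Ighv1-26 (2.52), Igkv5-39 (2.84), Igkv6-15 (2.85), Igkv6-23 (3.33), Igkv12-46 (3.05), Ighv5-4 (3.83) and Ighv1-78 (4.13), and in control for Ighv1-81 (0.22), Igkv10-96 (1.15), Igkv8-30 (1.85) and Igkv12-44 (2.84). It also turned Iglv1 in EpoR+ (-0.18), Igkv12-46 (-0.026) and Igkv8-30 (-0.64) in spleen cKO, and the difference of Ighv1-81 (0.20). This scaling tests a share in place of a level. The cause of the other changes was not tested. Depth limits lymph node most, with 1675 to 2454 V counts per library.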

Other observations

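Counted by family, Igkv6 held 43.4, 38.9 and 43.2% of light chain V counts in cKO lymph node, against 0.196, 0.513 and 2.80% in control lymph node. Igkv8 held 0.699, 0 and 0.423% in cKO lymph node, against 15.7, 18.8 and 21.3% in control lymph node. Among heavy chains of the spleen, Ighv9 held 8.31, 7.05 and 7.87% in cKO, against 0.384, 1.11 and 0.896% in control. Heavy segments made up 45.2 and 45.2% of V counts in EpoR+ and 46.9 and 46.8% in EpoR- cDC1s, while in the tables of the other groups heavy segments made up 16.8 to 26.8% of V counts. The tables were counted separately, so levels were not tested across them.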
